A study of Mus musculus with 5 samples.

Results

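The cells described here are transplant-derived basal cells with low Cxcl10, from mouse tracheas that had received basal-like cells made from embryonic stem cells. They carried Krt5, the keratin that marks airway basal cells, and few or no transcripts of Cxcl10, an interferon-induced chemokine. They were selected on measured values, in the libraries sorted for the donor's green fluorescent protein. Kept barcodes had at least 500 mouse genes and under 20% mitochondrial UMIs (unique molecular identifiers, each a counted transcript). A member had at least 5 Krt5 UMIs per 10000, under 10 per 10000 of the secretory gene Scgb3a2 and of the hillock keratin Krt13, under 2 UMIs of the ciliated-cell factor Foxj1, under 3 of the division genes Mki67 and Top2a together, and under 3 of Cxcl10. The rule found 503 cells at day 40 and 714 at day 56, which is 1217 of the 3435 cells kept in the donor-derived libraries and of the 6602 kept in all 5 libraries.

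Single-cell RNA was read with 10x Chromium in 5 libraries of pronase-digested trachea from adult wild-type 129 X1/S1 mice. In the donor-derived group, at day 40 and day 56, the recipients had been given 2% polidocanol into the trachea and 6000000 induced basal cells (iBCs) 5 h later, and GFP-positive live cells were sorted. The endogenous group holds the GFP-negative live cells of the same 2 recipients, 1 for each day, so it shares the injury and the transplantation. The control is 1 uninjured trachea without transplanted cells, sorted for live cells only. The donor-derived and the endogenous group thus have 1 library per day each, and the 2 libraries of a group differ in the recipient and in the day at once. The p-values measure the spread between such libraries, and the control, with 8 cells of the same rule, has no test.

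Basal cells are the stem cells of the pseudostratified airway epithelium. They lie on the basement membrane, hold on to it through hemidesmosomes with keratins 5 and 14, and give rise to secretory and ciliated cells. Interferons act through factors such as IRF1 on GTPases of the immunity-related and guanylate-binding families, antigen presentation genes and the chemokines Cxcl9 and Cxcl10, which draw T cells. Wnt4 is a secreted Wnt ligand, Apoc1 a small lipoprotein protein, Cavin2 a coat protein of caveolae and Dcn the matrix proteoglycan decorin.

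The members held 6072572 UMIs at day 40 and 6876046 at day 56, with medians of 10454 and 8712 per cell. The cells of the same rule numbered 97 and 73 in the endogenous libraries, with 886167 and 728843 UMIs and medians of 9436 and 10112 per cell, and 8 in the control, with 67941 UMIs. Mitochondrial transcripts made up a median of 3.43% and 3.89% of a member's UMIs, against 5.30% and 4.64% in endogenous cells. Pairs of libraries shared between 0 and 2 barcodes, and Scrublet called 1 member a doublet. The Scgb3a2 limit removed 4.94% and 20.1% of the Krt5 cells of the donor-derived libraries, against 76.7% and 77.8% of those in the endogenous libraries and 93.9% of the control's. The endogenous cells compared here are therefore the small part of the Krt5 cells with little Scgb3a2, and key comparisons are also given without that limit.

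The cells carried markers of basal cells, though not all at the level of endogenous cells. Besides Krt5, the members had 5407 and 3149 counts per 1000000 UMIs (CPM, over the summed cells of a library) of Krt15 and 209 and 275 CPM of Trp63, the p63 factor of basal cells. Endogenous cells had 5157 and 3091 CPM of Krt15 and 437 and 480 CPM of Trp63. The donor's EGFP was found in 58.1% of members at day 40 and 41.9% at day 56 and in 0 of the 97 and 0 of the 73 endogenous cells, where the exact upper limits of 3.73% and 4.93% are for cells with an EGFP UMI and not for cells that carry the gene. The fibroblast genes Col1a1, Col3a1 and Lum, the endothelial Cdh5 and the leukocyte Ptprc were at 0 UMIs in the members of both days, so decorin was read here in cells without those markers. Of 12 macrophage markers 7 were at 0 at each day, and their summed level was 132 and 4.94 CPM in members, against 75.6 and 180 CPM in endogenous cells and 1575 CPM in the 8 control cells. Lyz2 made up most of it, and 5 cells held 91.3% of its UMIs in the members of day 40. In the 8 control cells C1qa had 280 CPM and Mrc1 147 CPM, so their interferon and antigen presentation levels stand beside macrophage transcripts whose part was not tested.

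The promoter windows of the selection gene and of genes that differed between cells of low and high Cxcl10 are shown first. Cxcl10, Cxcl9 and Gbp5 belong to the interferon response and were lower in the members than in the donor-derived basal cells of high Cxcl10, while Cavin2 was higher. Cxcl9 did not follow Cxcl10 step by step. At day 40 it had 1517 CPM in the 8 members with 2 Cxcl10 UMIs and 127 CPM in cells with 3 to 5. At day 56 it had 0 CPM in cells with 3 to 5 or 6 to 20 and 544 CPM in the 12 cells over 20. The windows are those of RefSeq on GRCm38.p6 and run from 250 bases before to 50 after the gene's start: chr5:92348840-92349139 (minus strand) for Cxcl10, chr5:92328030-92328329 (minus) for Cxcl9, chr3:142496684-142496983 (plus) for Gbp5 and chr1:51288876-51289175 (plus) for Cavin2. Capitals mark matches, on either strand, to GAAANNGAA, the core of an interferon response element, or to GGNANTTCC, a kappaB-like motif, and no 2 matches overlap.
Cxcl10: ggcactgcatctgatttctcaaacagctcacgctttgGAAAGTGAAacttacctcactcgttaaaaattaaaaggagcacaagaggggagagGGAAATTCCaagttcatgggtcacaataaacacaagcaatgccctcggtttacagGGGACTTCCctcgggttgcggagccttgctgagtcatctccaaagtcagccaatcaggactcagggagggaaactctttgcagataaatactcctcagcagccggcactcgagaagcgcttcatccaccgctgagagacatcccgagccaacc
Cxcl9: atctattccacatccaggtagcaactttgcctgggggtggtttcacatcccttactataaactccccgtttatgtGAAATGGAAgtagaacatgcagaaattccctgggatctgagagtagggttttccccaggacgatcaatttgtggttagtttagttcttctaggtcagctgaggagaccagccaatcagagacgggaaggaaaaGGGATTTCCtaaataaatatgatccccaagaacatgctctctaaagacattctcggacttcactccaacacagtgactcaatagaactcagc
Gbp5: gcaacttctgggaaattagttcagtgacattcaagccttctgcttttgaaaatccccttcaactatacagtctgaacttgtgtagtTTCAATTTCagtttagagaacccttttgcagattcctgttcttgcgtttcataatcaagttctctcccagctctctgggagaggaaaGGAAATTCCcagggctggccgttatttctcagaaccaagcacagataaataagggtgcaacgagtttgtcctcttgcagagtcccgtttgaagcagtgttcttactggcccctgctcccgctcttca
Cavin2: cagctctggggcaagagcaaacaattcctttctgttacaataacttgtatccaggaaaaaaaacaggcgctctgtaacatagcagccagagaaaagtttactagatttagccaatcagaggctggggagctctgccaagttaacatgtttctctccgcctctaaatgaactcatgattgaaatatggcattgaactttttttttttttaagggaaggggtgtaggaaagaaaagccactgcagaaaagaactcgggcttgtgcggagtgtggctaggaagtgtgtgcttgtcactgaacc
Cxcl10 has an interferon match 213 bases and kappaB matches 158 and 103 bases upstream of the start. In Cxcl9 they lie 175 and 42 bases upstream, in Gbp5 164 and 77 bases, and the Cavin2 window has none. Among the 12 genes most reduced against high Cxcl10, 9 have a window and 5 of those (55.6%) hold the interferon core, namely Gbp5, Cxcl9, Serpina3f, Apol10b and Socs1. It is in 9.76% of all 27025 genes with a window. The kappaB-like motif is in Gbp5, Cxcl9 and Slfn2, against 5.44% of all genes with a window. Of the 12 genes most raised, 8 have a window, with the interferon core in 2 (Gstm1 and Gfra1) and the kappaB-like motif in 0. Both sets of 12 genes were ranked on the Cxcl10 split that chose the members. The genes with a window were not limited to those of like level. The shares are therefore a description without a test. A match is a string of letters and not a binding site.

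Krt5, whose minimum the rule set, had 1866 CPM at day 40 and 1409 CPM at day 56 in members, against 1438 and 1506 CPM in endogenous cells and 1781 CPM in the control. It spread widely, with the middle 90% of members between 6.89 and 35.3 UMIs per 10000 at day 40 and between 5.96 and 27.9 at day 56. Cells just under its limit (3 to 5 per 10000) numbered 30 and 68 and had 1369 and 539 CPM of Krt14, while the 29 and 91 members just above it (5 to 7) had 1642 and 708 CPM. The gene lies on chromosome 15 (GRCm38, 101707070 to 101712898).

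Krt14, the partner of Krt5 in basal filaments (chromosome 11, 100203162 to 100207548), was the marker with the widest gap between the groups. It had 3242 and 1979 CPM in members at day 40 and day 56, against 624 and 973 CPM in endogenous cells and 0 CPM in the control. The groups did not overlap, but with 2 libraries each this alone is not evidence of a difference, here or below. The log2 fold change was 1.63 ± 0.33 (SE) and missed the threshold of 0.05 in edgeR's quasi-likelihood test over all genes (adjusted p = 0.086, 2 libraries each), as it did with the recipient as a block (0.33). It passed with DESeq2 (1.6e-05) and at Krt5 of 20 or more per 10000 (0.0014), and missed without the Scgb3a2 limit (0.084). A fit that leaves out a library takes the spread from the other group alone. No p-value of such a fit is therefore given for the markers. Krt14 was detected in 94.0% and 77.7% of members, against 38.1% and 58.9% of endogenous cells, and in 14.7% and 7.14% of ciliated-gated cells of the donor-derived libraries, which should lack it.

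Wnt4 (chromosome 4, 137277489 to 137299726) was read in nearly all cells, at 911 and 1103 CPM in members, against 771 and 716 CPM in endogenous cells and 324 CPM in the control. Its log2 fold change of 0.35 ± 0.14 did not pass (edgeR adjusted p = 0.25). It was found in 99.0% and 99.3% of members and in 99.0% and 97.3% of endogenous cells, and at 169 and 191 CPM in ciliated-gated donor-derived cells. Apoc1 (chromosome 7, 19689481 to 19692660) had 375 and 595 CPM in members, against 333 and 270 CPM in endogenous cells and 280 CPM in the control, with a log2 fold change of 0.59 ± 0.24 (edgeR adjusted p = 0.26). Without the Scgb3a2 limit Apoc1 passed, with an edgeR adjusted p of 0.045, and it passed as well at Krt5 of 20 or more (0.014), but not with DESeq2 (0.44).

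Cavin2 (chromosome 1, 51289126 to 51302960) had 466 and 934 CPM in members, against 175 and 295 CPM in endogenous cells and 177 CPM in the control. At each day the member library was above its endogenous counterpart, and both member libraries were above both endogenous ones. The log2 fold change of 1.49 ± 0.45 missed the threshold without the recipient in the fit (edgeR adjusted p = 0.22). It passed with the recipient as a block (1.45 ± 0.14, edgeR adjusted p = 1.2e-05) and with DESeq2 (0.0026). The blocked fit leaves less data to measure a gene's own spread, so its p-value leans more on the spread pooled over genes. Cavin2 missed the threshold without the Scgb3a2 limit (edgeR adjusted p = 0.16) and at Krt5 of 20 or more (0.23). Dcn (chromosome 10, 97479609 to 97518143) overlapped between the groups, with 494 and 807 CPM in members, against 651 and 830 CPM in endogenous cells and 706 CPM in the control (log2 −0.27 ± 0.24, edgeR adjusted p = 0.67). At each day the member value of Dcn was under that of the same recipient's endogenous cells. In the test without the recipient, 0 of the 5 markers other than Krt5 thus passed in either direction.

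**Figure D1:**
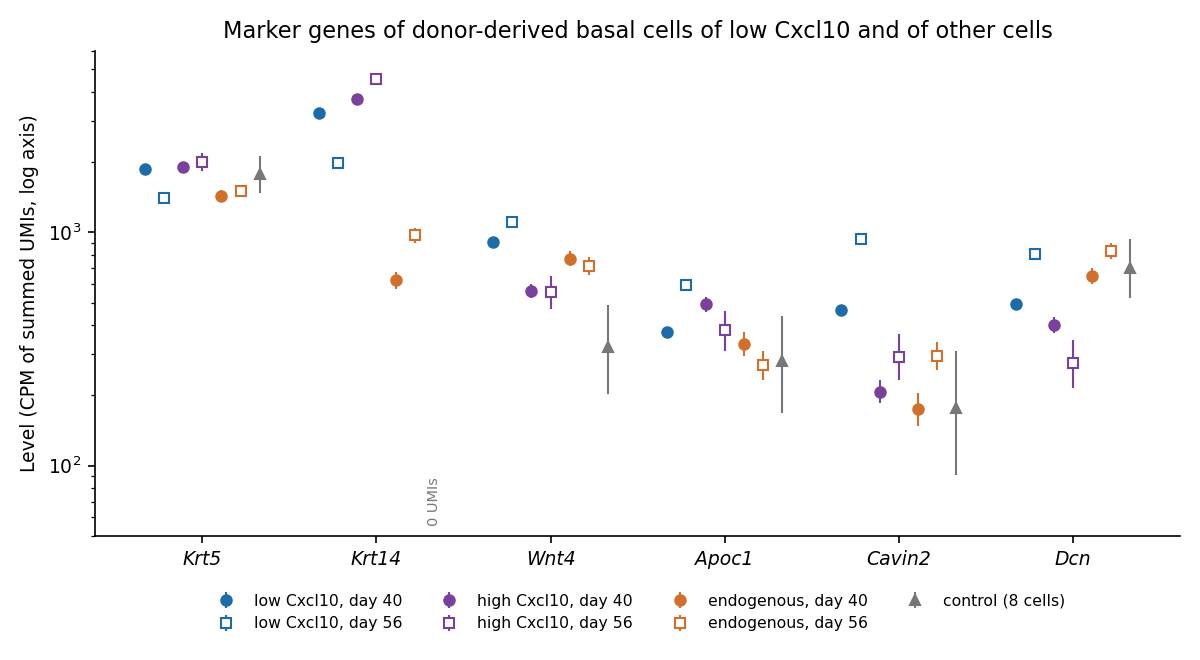
Level of the 6 marker genes in CPM (logarithmic axis) in the donor-derived basal cells of low and of high Cxcl10 and in the endogenous and control cells of low Cxcl10, with exact Poisson 95% intervals for counting error only. Krt14 and Cavin2 are higher in both donor-derived libraries than in both endogenous ones, whereas Dcn overlaps.

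The markers were combined in more of the members than of the endogenous cells. After each cell was thinned to 5000 UMIs, all 5 markers other than Krt5 were detected together in 20.6% and 36.6% of members, against 3.37% and 4.23% of endogenous cells, which is 3 of 89 and 3 of 71 cells. With 4 of the 5 the shares were 38.5% and 35.1% of members, against 28.1% and 36.6% of endogenous cells. The markers were chosen for these members with earlier results of these data known, so the joint share is a description. It is not separate from the single markers. After thinning, Krt14 was read in 91.8% and 75.1% of members, against 33.7% and 56.3%, and Cavin2 in 80.8% and 95.6%, against 49.4% and 60.6%.

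By the ratio of variance to that of counting error, Krt14 ranked highest of the markers among the members. Across the 1117 genes of at least 100 CPM it ranked 5th, after Malat1, Apoe, Crip1 and Scgb1a1. The ratio grows with a gene's level, and Krt14 had the highest level of the markers, so the rank does not measure spread relative to level. Krt14 had ratios of 41.1 and 28.5 at day 40 and day 56. Apoc1 had 21.5 and 15.1 at the far lower levels of 375 and 595 CPM. Krt14 was at 0 in 30 members (5.96%) at day 40 and 159 (22.3%) at day 56, against 60 (61.9%) and 30 (41.1%) of the endogenous cells. It reached 40 or more UMIs per 10000 in 146 (29.0%) and 102 (14.3%) of the members, against 4 and 4 endogenous cells. Between these ends, 87 and 164 members had under 10 per 10000 and 240 and 289 had 10 to 40, so the members lay along the whole range.

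Other keratin and secretory genes differed along that range of Krt14. Krt17, a keratin of basal cells in growth or injury, had 1226 and 766 CPM in the members of highest Krt14, against 14.0 and 15.7 CPM in those at 0. Clca3a2, of the calcium-activated chloride channel regulator family, had 2581 and 1561 CPM at the high end, against 371 and 244 CPM at 0. Sfn, the epithelial 14-3-3 protein stratifin, had 955 and 1251 CPM, against 171 and 204 CPM. The secretory detoxifying enzyme Cyp2f2 ran the other way, with 1010 and 924 CPM at the high end, against 3275 and 2793 CPM at 0. Gstm1, a glutathione transferase, had 165 and 425 CPM, against 749 and 1292 CPM. Wnt4 was level, with 880 and 1105 CPM at the high end, against 882 and 989 CPM at 0. Cells of high Krt14 were also deeper, with medians of 11254 and 10286 UMIs, against 8309 and 7820 UMIs in those at 0, and the part of depth was not tested.

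**Figure D2:**
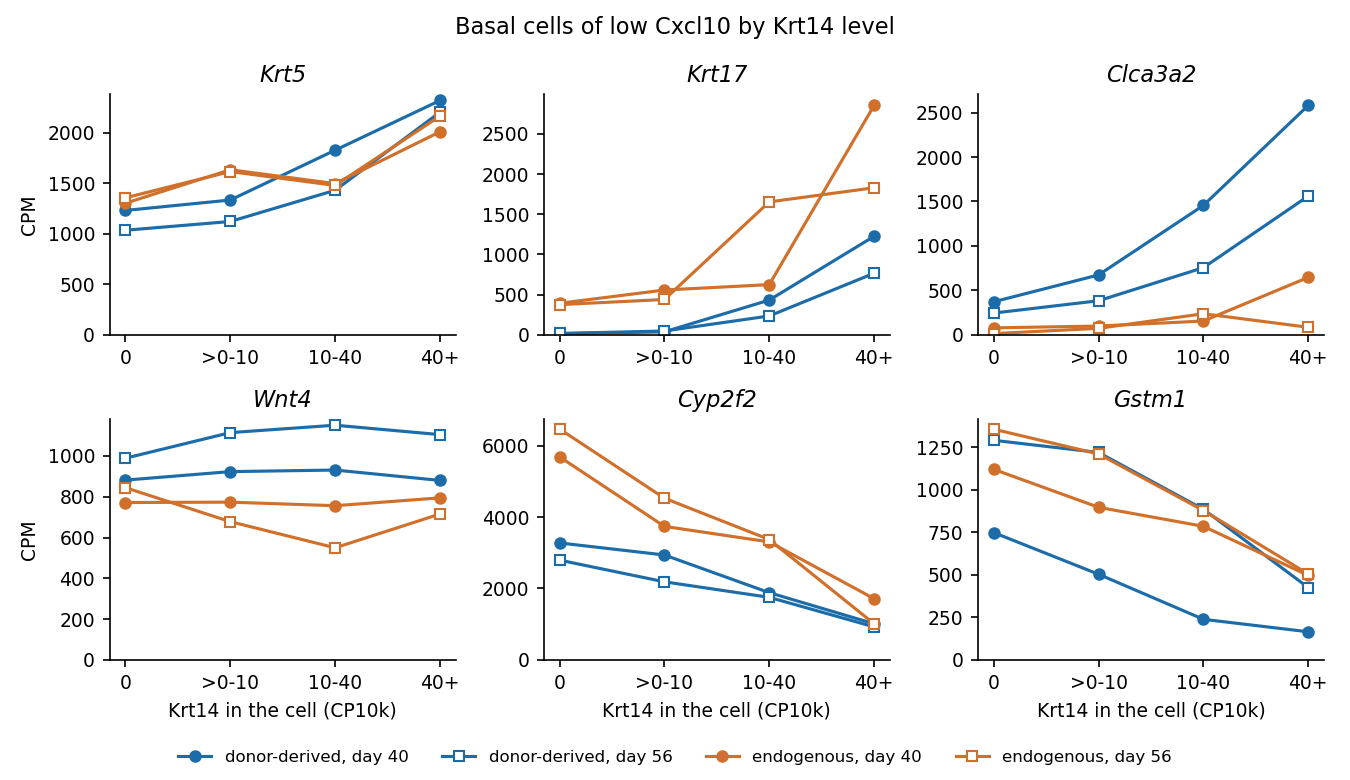
Level of Krt5, Krt17, Clca3a2, Wnt4, Cyp2f2 and Gstm1 (CPM, linear axes from 0) by Krt14 level of the cell (UMIs per 10000) within the low-Cxcl10 basal cells of the donor-derived and endogenous libraries. In members Krt17 and Clca3a2 are higher and Cyp2f2 and Gstm1 lower where Krt14 is higher, at both days, and the highest endogenous stratum holds 4 cells at each day.

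Over the single cells of a library, the genes most like Krt5 were Krt14 (Spearman's rho 0.44 at day 40 and 0.47 at day 56), the cell cycle gene Ccnd1 (0.38 and 0.36), Anxa2 (0.37 and 0.34), S100a6 (0.34 and 0.33) and Krt17 (0.38 and 0.33). For Krt14 they were Krt17 (0.57 and 0.51), Clca3a2 (0.55 and 0.48), Krt5, the ubiquitin-like Ubd (0.41 and 0.42) and Ifitm3 (0.43 and 0.40). Cyp2f2 was the least like Krt14 (−0.53 and −0.45). These coefficients describe 503 and 714 cells that share a library, and depth alone gave rho of 0.18 and 0.22 with Krt5.

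Of the donor-derived basal cells that passed every other limit, 81.3% at day 40 (503 of 619, exact 95% interval 78.0 to 84.3) and 97.1% at day 56 (714 of 735, 95.7 to 98.2) were of low Cxcl10. The shares were 96.0% (90.2 to 98.9) and 98.6% (92.7 to 100) among endogenous cells, and 8 of 8 control cells passed (63.1 to 100). Day 40 in the donor-derived library stood below the others. After thinning to 5000 UMIs the donor-derived shares were 86.0% and 97.5%. Most members had no Cxcl10 at all, since 450 and 698 had 0 UMIs, 45 and 14 had 1, and 8 and 2 had 2. Just outside the limit, at 3 to 5 UMIs, lay 18 and 2 cells, and the sum over all high-Cxcl10 cells was 3519 and 3902 CPM.

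Against the donor-derived basal cells of high Cxcl10 (116 at day 40, 21 at day 56), the members differed first in interferon genes. This contrast chose the members and is a description without a test. Of 2934 genes with at least 50 CPM and 10 counts in the higher sum of each library, 103 (3.51%) were 2-fold or more lower in members at both days and 7 (0.239%) were 2-fold or more higher, on a log2 scale with 2 CPM added. All 16 interferon-induced GTPases above that level were among the 103. Their summed level was 2361 and 1134 CPM in members, against 8883 and 9038 CPM in high-Cxcl10 cells. Gbp5, a guanylate-binding GTPase, had 48.6 and 17.7 CPM in members, against 490 and 395 CPM in high-Cxcl10 cells. Socs1, the feedback inhibitor of JAK kinases, had 50.1 and 26.0 CPM, against 259 and 324 CPM. Vcam1, an adhesion molecule for leukocytes, had 31.3 and 8.58 CPM, against 237 and 151 CPM. Of 16 antiviral genes 9, of 14 interferon signalling genes 8, of 17 MHC class I genes 3 and of 7 MHC class II genes 0 were 2-fold or more lower in members at both days.

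Genes higher in the members than in the high-Cxcl10 cells were fewer and of other kinds. Btg2, an antiproliferative gene, had 159 and 288 CPM in members, against 49.5 and 75.3 CPM in high-Cxcl10 cells. Gstm1 had 287 and 967 CPM, against 114 and 214 CPM, and Gsta3, another glutathione transferase, 178 and 462 CPM, against 85.6 and 158 CPM. Gfra1, a receptor for glial cell line-derived factors, had 76.7 and 165 CPM, against 32.8 and 30.1 CPM. Cavin2 had 466 and 934 CPM in members, against 208 and 293 CPM in high-Cxcl10 cells, and Wnt4 911 and 1103 CPM, against 560 and 553 CPM. Krt14 ran the other way, with 3242 and 1979 CPM in members, against 3721 and 4560 CPM, and so did Krt17, with 589 and 235 CPM, against 1215 and 2288 CPM. High-Cxcl10 cells were deeper, at medians of 12259 and 11915 UMIs, and among cells of 8000 to 16000 UMIs the counts of lower and higher genes were 94 and 10.

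**Figure D3:**
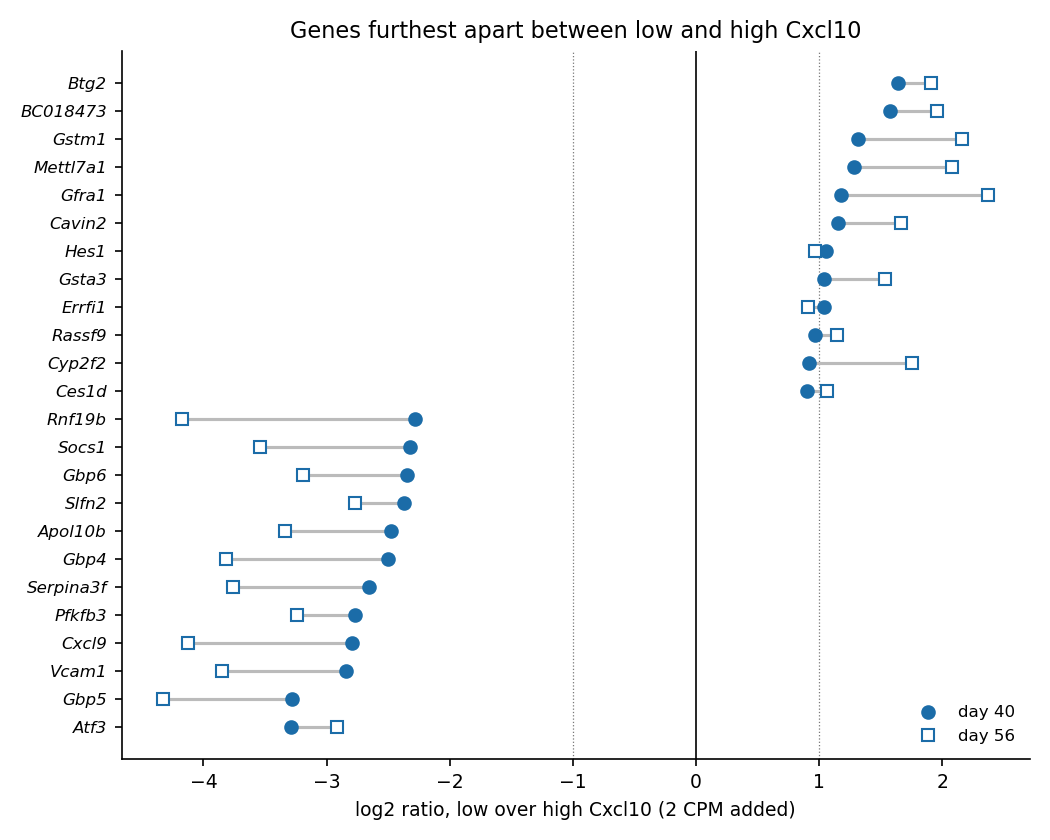
log2 ratio of low-Cxcl10 over high-Cxcl10 donor-derived basal cells (x axis, 2 CPM added, dotted lines at 2-fold) for the 12 genes furthest apart in each direction, with filled points for day 40 and open squares for day 56. The genes on the left, led by Gbp5, Atf3 and Vcam1, are more than 2-fold lower in members at both days, and Btg2, Gstm1 and Cavin2 are more than 2-fold higher.

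Interferon genes were also read in members without any Cxcl10 transcript. Those members, at 0 Cxcl10 UMIs, had a GTPase sum of 2140 CPM at day 40 and 1057 CPM at day 56, those with 1 UMI had 3679 and 3507 CPM, and donor-derived cells over 20 UMIs had 11164 and 11228 CPM. Endogenous cells of the same rule had 384 and 586 CPM and the 8 control cells 58.9 CPM. The MHC class II sum was less graded, with 7875 and 5076 CPM at 0 Cxcl10 UMIs and 10995 and 9146 CPM over 20 UMIs, and 1790 and 3226 CPM in endogenous cells. Ubd, an interferon-induced ubiquitin-like gene, had 583 and 107 CPM in members, against 44.0 and 31.6 CPM in endogenous cells, and did not pass the test of the next paragraph (edgeR adjusted p = 0.48).

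**Figure D4:**
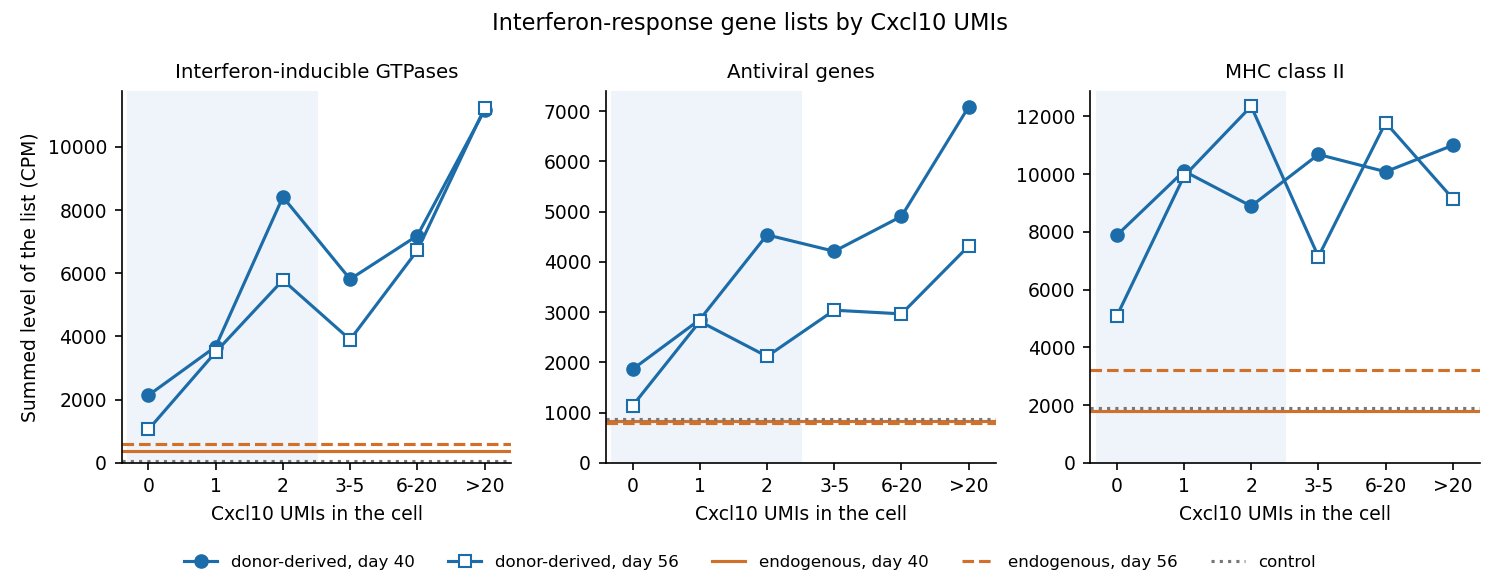
Summed level of interferon-induced GTPases, antiviral genes and MHC class II genes (CPM, linear axes from 0) in donor-derived basal cells by Cxcl10 UMIs per cell at day 40 and day 56, with members shaded and horizontal lines for the endogenous and control cells of low Cxcl10. The GTPase sum is 2140 and 1057 CPM already at 0 Cxcl10 UMIs, above the 384 and 586 CPM of endogenous cells.

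Set against endogenous cells of the same rule, 245 of 10649 genes (2.30%) were higher in the members and 403 (3.78%) lower (edgeR's quasi-likelihood test, adjusted p under 0.05, 2 libraries each, with the 7 genes of the rule not tested). The median log2 fold change over all genes was 0.01. With the recipient as a block 475 were higher and 566 lower, and they held 244 of the 245 and all 403. Without the Scgb3a2 limit on either side, which left 419 and 322 endogenous cells, 437 were higher and 742 lower, with 205 and 363 of the calls shared. The calls rest on both endogenous libraries. Without that of day 40, 8 of the 245 and 40 of the 403 passed, and without that of day 56, 7 and 23. The largest changes below are given with the sum of cells behind them, and for genes at 0 in a group the fold is a lower bound against 3 counts over that group.

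The genes of largest rise were nearly silent in endogenous basal cells. Cryab, the lens and stress chaperone alpha-B crystallin (chromosome 9, 50751325 to 50756636), had 283 and 172 CPM in members, against 0 and 0 CPM in endogenous cells, so it was at least 121-fold higher (edgeR adjusted p = 0.0022). It was read in 70.0% and 51.8% of members. Cdkn2a, which encodes the cell cycle inhibitors p16 and ARF (chromosome 4, 89274471 to 89294653), had 109 and 91.8 CPM, against 0 and 0 CPM, at least 53.7-fold higher (adjusted p = 5.3e-05), and was read in 66.6% and 52.2% of members. Jam2, a junctional adhesion molecule, had 36.2 and 27.8 CPM, against 0 and 0 CPM, at least 17.1-fold higher. Foxq1, a forkhead factor (chromosome 13, 31556134 to 31560976), had 166 and 214 CPM, against 10.2 and 16.5 CPM (log2 3.77 ± 0.26, adjusted p = 5.2e-05). Ciliated-gated cells of the donor-derived libraries also held Foxq1, at 126 and 199 CPM, Cdkn2a, at 114 and 155 CPM, and Cryab, at 85.3 and 50.8 CPM in 35.3% and 14.3% of those cells (median depths of 18048 and 11704 UMIs), so they were read outside the basal cells as well. Donor-derived basal cells of high Cxcl10 had 114 and 252 CPM of Cdkn2a and 333 and 305 CPM of Cryab. High levels of these 2 genes were thus not particular to the members. The reporter EGFP had 86.0 and 67.3 CPM in members, against 0 and 0 CPM. Csprs and its annotated repeat copies AC133103.1 and AC168977.1 also passed, but near-identical copies may share reads and their values are uncertain.

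The genes of largest fall were nearly silent in members. Hspb1, the small heat shock protein HSP25 (chromosome 5, 135887919 to 135889563), had 4.28 and 6.11 CPM in members, against 374 and 366 CPM in endogenous cells and 383 CPM in the control (log2 −6.23 ± 0.22, edgeR adjusted p = 6.4e-07). Sult1d1, a sulfotransferase (chromosome 5, 87554645 to 87569027), had 8.23 and 6.84 CPM, against 952 and 911 CPM (log2 −7.04 ± 0.20, adjusted p = 1.5e-07). Cdkn1c, the imprinted cell cycle inhibitor p57 (chromosome 7, 143458339 to 143461050), had 0.165 and 0.291 CPM, against 63.2 and 42.5 CPM, and was 233-fold lower by pooled rates (exact interval 77.0 to 1149, from 3 counts). Ntng1 and Sobp were at 0 UMIs in members and at least 131-fold lower. Dsc3, a desmosomal cadherin of basal layers, was at 0 UMIs too, against 14.7 and 23.3 CPM, at least 80.2-fold lower. Cd52, a leukocyte surface protein, also passed, but its endogenous level was 3.39 CPM at day 40 and 41.2 CPM at day 56, beside lymphocyte marker sums of 9.03 and 106 CPM.

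Of 19 basal identity genes tested, 0 were higher and 5 lower, against 2.30% higher and 3.78% lower over all genes. Their median log2 was −0.11, against 0.01 over all genes. The 5 were Trp63 (log2 −1.01 ± 0.17), the tissue factor gene F3 (−3.50 ± 0.25), the water channel Aqp3 (−1.82 ± 0.32), Dapl1 and Dlk2, of which Dlk2 missed the threshold without the Scgb3a2 limit (edgeR adjusted p = 0.085). F3 had 104 and 63.1 CPM in members, against 838 and 930.2 CPM in endogenous cells and 633 CPM in the control. Trp63 had 209 and 275 CPM, against 437 and 480.2 CPM. Krt15 overlapped, at 5407 and 3149 CPM, against 5157 and 3091 CPM. Of 10 keratins, 1 was higher, the simple-epithelium keratin Krt8, at 554 and 399 CPM, against 218 and 255 CPM (0.92 ± 0.19, edgeR adjusted p = 0.019), and without the Scgb3a2 limit it did not pass (adjusted p = 0.89).

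Among transcription factors of the airway and of development, 4 were higher and 10 lower of 34, against 2.30% higher and 3.78% lower over all genes. The higher ones were Foxq1, Gata6, Id1 and Id3, of which the Id proteins inhibit helix-loop-helix factors. Id3 had 73.4 and 104 CPM in members, against 12.4 and 8.23 CPM in endogenous cells, and missed the threshold without the Scgb3a2 limit (edgeR adjusted p = 0.13). The lower ones included Sox2 (163 and 135 CPM in members, against 248 and 310.1 CPM in endogenous cells, log2 −0.99 ± 0.17) and Nkx2-1, the factor that specifies the lung lineage (83.7 and 77.4 CPM, against 119.6 and 130.3 CPM, −0.72 ± 0.16). Tbx1 had 0.494 and 0.145 CPM, against 37.2 and 35.7 CPM, and Sox9 3.29 and 2.76 CPM, against 26.0 and 70.0 CPM. Irx2, Irx3, Irx5 and Hoxb2 were lower as well.

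In the Wnt pathway the ligand Wnt4 was among the many genes that did not pass. Ligands and receptors were higher in 0 and lower in 3 of 22, against 2.30% higher and 3.78% lower over all genes. Lgr6, a receptor for R-spondins, had 0.494 and 0.145 CPM in members, against 40.6 and 48.0 CPM in endogenous cells and 44.2 CPM in the control (log2 −7.09 ± 0.47, edgeR adjusted p = 4.0e-05). It was read in 0.199% and 0.140% of members, against 28.9% and 30.1% of endogenous cells. Wnt5b had 3.79 and 5.38 CPM, against 18.1 and 38.4 CPM, and Fzd10 1 UMI in all members, against 16 in endogenous cells. The ligand transporter Wls had 445 and 485 CPM, against 357 and 358 CPM, and the ligand Wnt10a 162 and 77.7 CPM, against 139 and 108 CPM, neither past the test. Of 10 targets and inhibitors 0 were higher and 2 lower, Dkk3 and Nkd2, while Ctnnb1, which encodes beta-catenin, had 269 and 282 CPM, against 295 and 298 CPM.

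Among caveolar genes Cav1 rose and Cavin3 fell, and among lipid genes Apoe and Cd36 fell. The shares called over all genes were 2.30% higher and 3.78% lower, and these lists are short. Of 8 caveolar genes 1 was higher, Cav1, whose product caveolin 1 builds the coat, at 454 and 411 CPM in members, against 167 and 139 CPM in endogenous cells (log2 1.41 ± 0.17, edgeR adjusted p = 0.0011). The other coat gene called was Cavin3, at 1.15 and 4.36 CPM, against 41.8 and 52.1 CPM (−4.12 ± 0.50). Cavin3 had 11.6 and 56.4 CPM in the high-Cxcl10 cells. Cavin1 had 156 and 135 CPM, against 153 and 141 CPM, and Cav2 192 and 219 CPM, against 170.4 and 193 CPM. Of 10 apolipoprotein and lipid uptake genes 0 were higher and 2 lower. Apoe, the neighbour of Apoc1 on chromosome 7 (19696109 to 19699188), had 272 and 447 CPM in members, against 4732 and 5291 CPM in endogenous cells and 4578 CPM in the control (−3.89 ± 0.26, adjusted p = 0.001). It was read in 43.1% and 51.8% of members, against 97.9% and 100% of endogenous cells, whereas Apoc1 was read in 52.9% and 65.3%, against 60.8% and 47.9%. Apoe also ranked 2nd of the 1117 genes by the ratio of variance to that of counting error among members. Cd36, a fatty acid receptor, had 0.329 and 0.582 CPM, against 71.1 and 65.9 CPM.

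Matrix and adhesion genes beside decorin were mostly not separated. For the counts below, the shares called over all genes were 2.30% higher and 3.78% lower. Of 26 matrix genes 0 were higher and 4 lower, the collagens Col7a1, Col16a1 and Col17a1 and the fibulin Fbln1. Col17a1, of the hemidesmosome, had 115 and 128 CPM in members, against 209.9 and 170.1 CPM in endogenous cells (log2 −0.74 ± 0.17, edgeR adjusted p = 0.033). The laminin chain Lamb3 had 204 and 197 CPM, against 201 and 203 CPM. Of 14 integrins and partners 2 were higher, Itga9 (27.3 and 42.3 CPM, against 6.77 and 12.3 CPM) and the dystroglycan gene Dag1, and Itgb8 was lower (0.659 and 0.291 CPM, against 16.9 and 41.2 CPM). Itga6 and Itgb4, the pair that binds laminin 332, had 164 and 167 CPM and 208 and 194 CPM, against 151 and 137 CPM and 194 and 215 CPM. In the TGF-beta and BMP pathway, the ligand Tgfb2 (65.5 and 70.1 CPM, against 27.1 and 34.3 CPM) and the latency protein Ltbp1 were higher, and Tgfbr3, Fstl1 and Bambi lower, of 24.

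Secretory and detoxifying genes were called lower more often than higher, where over all genes 3.78% were lower and 2.30% higher. Of 10 secretory markers 2 were higher and 6 lower, with a median log2 of −1.92, and of 23 xenobiotic enzymes 0 were higher and 9 lower. Cyp2f2 had 1863 and 1919 CPM in members, against 4714 and 4805 CPM in endogenous cells (−1.42 ± 0.10, edgeR adjusted p = 5.7e-05), and the carbonyl reductase Cbr2 1677 and 1839 CPM, against 5637 and 4930 CPM. Scgb1a1, the club cell secretoglobin, was higher, at 1102 and 1136 CPM, against 465 and 443 CPM (1.21 ± 0.13). Gabrp, a GABA receptor subunit, was the other, at 53.2 and 57.6 CPM, against 5.64 and 8.23 CPM. Neither passed without the Scgb3a2 limit (adjusted p = 0.56 and 0.44), and 5 members held 47.0% of the Scgb1a1 UMIs at day 40. Ciliated-gated cells of the same libraries had 55724 and 33126 CPM of Scgb1a1, and the part of RNA from other cells in the members' level was not tested.

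Interferon-induced GTPases were higher in members in 5 of 16 and lower in 0, against 2.30% higher and 3.78% lower over all genes. Their median log2 was 1.62, against 0.01 over all genes. Iigp1 had 654 and 402 CPM in members, against 74.5 and 148 CPM in endogenous cells (2.17 ± 0.40, edgeR adjusted p = 0.046), and did not pass with the recipient as a block (adjusted p = 0.29). Irgm1 had 124 and 85.4 CPM, against 36.1 and 39.8 CPM (1.37 ± 0.24, adjusted p = 0.0080). Irgm2, Ifi47 and Tgtp1 were called too. Of 26 antiviral genes 6 were higher and 1 lower, with Isg15 at 74.3 and 79.8 CPM, against 38.4 and 27.4 CPM. At Krt5 of 20 or more per 10000 Isg15 had a log2 fold change of −0.14 (edgeR adjusted p = 0.97). Of 8 MHC class II genes 3 were higher, all of the H2-DM peptide exchange factor, such as H2-DMb2 at 96.7 and 49.9 CPM, against 5.64 and 9.60 CPM (3.20 ± 0.51). Of 18 MHC class I genes the peptide transporter Tap1 was higher, and H2-Q6 and H2-Q7, whose near-identical relatives may share reads, were lower. The signalling gene Irf1 (136 and 78.1 CPM, against 48.5 and 53.5 CPM) did not pass, and 0 of 25 signalling genes were called in either direction. These calls depended on the limits used. Without the Cxcl10 limit 0 GTPases, 1 antiviral, 0 MHC class I and 2 MHC class II genes were higher, where 235 of all 10908 genes were. Iigp1, with a log2 fold change of 2.00, then had an edgeR adjusted p of 0.074. Without the Scgb3a2 limit 2 GTPases, 2 antiviral, 0 MHC class I and 1 MHC class II gene were higher, where 437 of all 11460 genes were. Fits that leave out a library are described at the end.

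**Figure D5:**
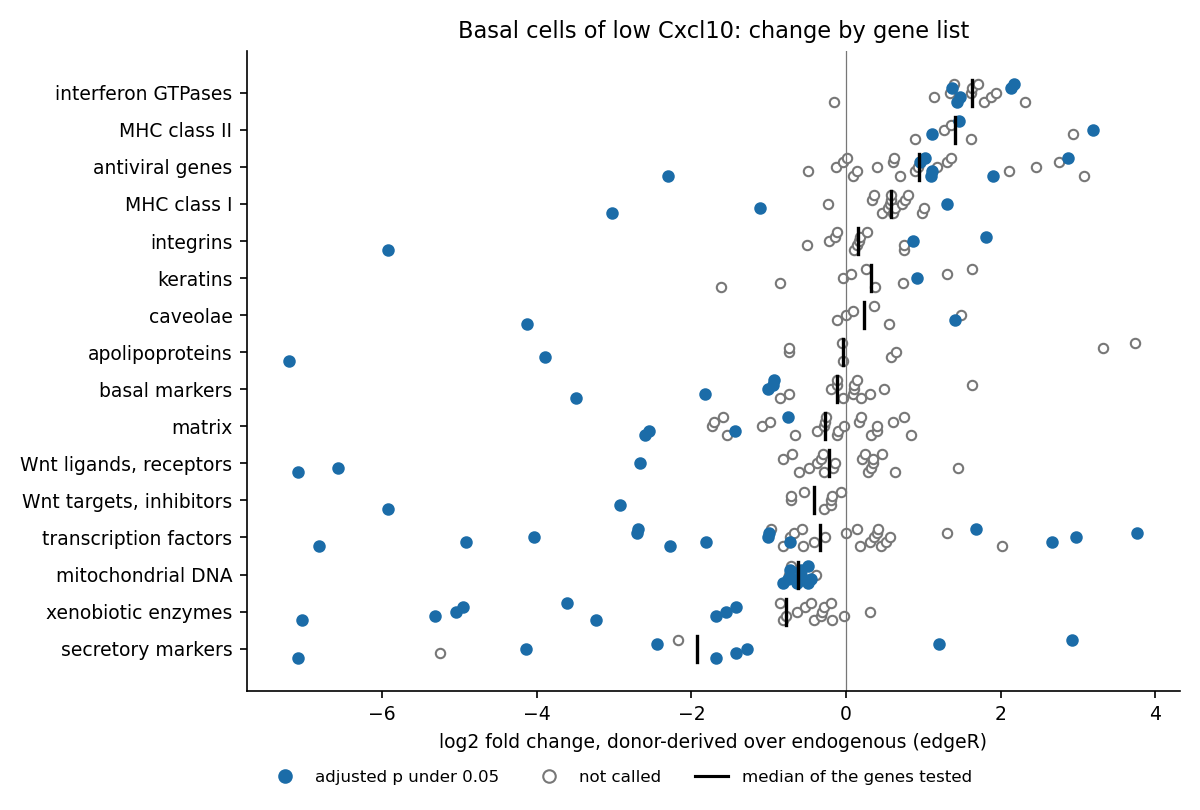
log2 fold change of members over endogenous low-Cxcl10 basal cells (edgeR) for the tested genes of 16 lists, with filled points for adjusted p under 0.05, open points for the other genes and bars at the median. The interferon GTPases and MHC class II genes lie to the right, and the secretory, xenobiotic and mitochondrial lists to the left.

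Transcripts of the mitochondrial genome were lower in 10 of 13 and higher in 0, against 3.78% lower and 2.30% higher over all genes. Their sum was 35356 and 39042 CPM in members, against 55338 and 46662 CPM in endogenous cells, with a median log2 of −0.62. DESeq2 called 3 of the 13. The share of mitochondrial UMIs per cell, given above, counts the same transcripts and is not a separate result. The cause of the lower level was not tested.

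Between the days, members can be compared only as 1 library against 1 library, so no test was made. Of 3077 genes of at least 50 CPM and 10 counts in the higher sum, 32 (1.04%) were 2-fold or more higher at day 56 than at day 40 and 64 (2.08%) lower. Sftpc, the surfactant protein of alveolar type II cells, had 107 CPM at day 56 and 2.14 CPM at day 40, in 169 of the members of day 56, and 0 CPM in endogenous cells of both days. Sftpb, another surfactant protein, had 58.8 CPM at day 56 and 8.73 CPM at day 40. Igfbp7, which binds insulin-like growth factors, had 189 CPM at day 56 and 42.3 CPM at day 40, while endogenous cells had 379 and 369 CPM. Ccn2, a matricellular gene, had 217 CPM at day 56 and 53.5 CPM at day 40, and endogenous cells moved alike, with 594 and 182 CPM.

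Several of the genes lower at day 56 rested on few cells. Ccl9 had 1.89 CPM at day 56 and 95.3 CPM at day 40, with 74.4% of the UMIs of day 40 in 5 cells, and for Fabp5, at 9.02 and 190.2 CPM, the share was 82.9%. Psca, a GPI-anchored surface protein, was spread more widely, with 62.7 CPM at day 56 and 460.4 CPM at day 40 and 24.3% of the UMIs of day 40 in 5 cells. The interferon lists were lower at day 56 as well, with a GTPase sum of 1134 CPM at day 56 and 2361 CPM at day 40 in members, while endogenous cells had 586 and 384 CPM. Day and recipient cannot be told apart here.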

How the data were processed

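The unit of the 5 deposited matrices is the raw UMI count of a gene in a barcode, per the file headers and values, against a combined mouse and human reference with EGFP and mCherry. The submitters' processing notes list the tools Cell Ranger, STARsolo and Seurat, with GRCm38 and GRCh38 as builds. How barcodes were called and whether strand was used are not given in the sources used here. The labels give group and day. The members and gene lists were chosen with earlier results of these data known, and the 42 lists follow textbook roles.

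Counts of the members were summed per library. Barcodes with more than 10% human-mapped UMIs (192, all in the control) were left out of the sums, and no doublets were removed. The main test, donor-derived over endogenous, was the quasi-likelihood F-test of edgeR 4.0.16 in R 4.3.3 with TMM scaling, its filter on low counts and the robust option, adjusted by Benjamini-Hochberg over all genes (threshold 0.05), after a check on simulated data. The simulated libraries had the same spread for every gene and no effect of day or recipient. The check therefore does not give the error rate in these data. The SE is the size of the log2 fold change over the root of F. CPM are plain shares of mouse UMIs, counting intervals are exact and cover counting error only, and a count of 0 allows up to 3 counts. Levels are comparable within a gene; 10x counts are not divided by length. Nothing in the labels shows cultures or animals beyond 1 recipient per day. The design text ties same-day libraries to the same recipient, and their deviations from the group means correlated (r = 0.213 over 2753 genes), so an edgeR fit blocked on recipient was run too. The blocked fit leaves less data to measure each gene's own spread, and its p-values lean more on the spread pooled over genes. Of genes of at least 50 CPM, 2.22% and 1.20% were 2-fold apart between the libraries of the donor-derived and the endogenous pair.

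Named are the markers and rule genes, per direction the 10 largest called changes at 20 CPM, at most 5 called genes of each list, all members of the Wnt, caveolae, apolipoprotein, matrix, integrin and keratin lists, per direction the 12 largest ratios low over high Cxcl10 and the 8 largest day 56 over day 40, and the 5 genes most like Krt5. A few others named for context (Sfn, C1qa, Mrc1, Gata6, Id1 and the Irx genes) were chosen after their values were seen. Gene coordinates are those of a GENCODE annotation of GRCm38. Other alternatives were DESeq2 1.42.0, RLE scaling, no low-count filter, leaving out each library, and stricter or looser cell limits. The steps ran in Python 3.11.15 with pandas 2.3.3, numpy 2.4.6, scipy 1.17.1, scanpy 1.11.5 (for Scrublet) and matplotlib 3.10.9.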

Additional observations from a re-analysis of the deposited data

How the results depend on the processing

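The main count of 648 genes (245 higher, 403 lower) stayed within 1.5 times with DESeq2 (563), RLE scaling (653), no Cxcl10 limit (650), Cxcl10 under 2 per 10000 (651), under 10% mitochondrial UMIs (645), no doublets (637) and only donor-derived cells with an EGFP UMI (673). It moved to 1420 without the filter on low counts (of 16479 genes), to 156 with Krt5 at 20 or more per 10000 (of 6985, from 177 and 98 members and 17 and 13 endogenous cells), and to 1041 with the replicate block, the recipient. Leaving out each library in turn gave 30 to 1040 genes, with the low end from the endogenous libraries (51 without day 40, 30 without day 56) and the high end without the donor-derived library of day 56. The lone library of a group is then assumed to vary like the other group, and the donor-derived pair was further apart than the endogenous one. Chosen after seeing the data, no limit on Scgb3a2 gave 1179, and 1585 with the replicate block as well. Of the 101 called genes that are named, 76 and 81 missed the threshold without the endogenous library of day 40 or day 56, 34 at Krt5 of 20 or more, 17 without the Cxcl10 limit (all 5 interferon-induced GTPases among them), 16 without the Scgb3a2 limit, 10 with DESeq2 and 1 with the block. Only Isg15 changed sign, to a log2 of −0.14 at Krt5 of 20 or more (adjusted p = 0.97). The low-Cxcl10 share of day 40 was 86.0% after thinning to 5000 UMIs. At Krt5 of 20 or more the low-Cxcl10 share was 93.3% of the donor-derived basal cells of day 56 (98 of 105), and 100% and 100% in the endogenous libraries. With 73 and 97 endogenous cells, a gene under about 3 UMIs could not be separated from 0.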
